A study of Mus musculus with 32 samples.

Results

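The comparison set 3 chronically jet-lagged mice (CJ in the labels) against 3 mice on a steady schedule (NS), all killed at ZT10 at 12 weeks of age. It used 6 of the 32 liver arrays of the series, chosen by the schedule, the time and the age in their titles. All were male wild-type C57BL/6 mice, housed singly, and each array held the liver RNA of 1 mouse. Steady mice lived under 12 h of light and 12 h of dark. For the jet-lagged group, room changes began at 4 weeks of age, with an 8 h offset in lights on between the rooms. ZT is time after lights on, so that ZT10 falls 2 h before lights off. How ZT was counted in a mouse that had just changed rooms, and how long before death the last move took place, are not given in the sources used here.

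The liver clock is a loop of transcription factors. CLOCK and BMAL1 (gene Arntl) drive the Per, Cry, Nr1d1, Nr1d2, Dbp and Ciart genes through E-boxes. PER and CRY then block CLOCK and BMAL1, while NR1D1 and NR1D2 repress Arntl, Clock, Cry1 and Nfil3 through ROR elements. In a mouse kept on a steady light cycle, Dbp and Nr1d1 run high late in the light phase and Arntl is then near its low point. Pancreatic acinar cells make digestive enzymes. The pancreas lies against the liver, so a piece of it can be taken along at dissection.

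Levels are log2 scanner signals from which the 75th percentile of the array was subtracted, so that 0 is the 75th percentile of an array. A difference is jet-lagged minus steady on that log2 scale, with its standard error (SE) from a limma fit of all 32 arrays. The slide is a random block in that fit, so a difference can depart a little from the difference of plain means. A gene was called at a Benjamini-Hochberg adjusted p under 0.05 over the 23106 genes tested. Every adjusted p below comes from this limma test, with 3 mice in each group. In whole liver, fewer cells of a type and less RNA per cell cannot be told apart.

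The 75th percentile of the signal ranged from 128 to 302.5 over the 32 arrays, and 43.4% to 58.1% of probes were well above background. The 6 arrays lay on 5 slides. Only 1 slide held both groups, with jet-lagged mouse 1 and steady mouse 3. All 6 arrays were liver by the hepatocyte markers, whose mean level lay between 8.28 and 8.78. On the array of jet-lagged mouse 3 a corner was dark: 72 genes lay over 3 log2 units below the median of the other arrays, 61 of them in that corner, against 0 to 30 genes on each of the other 31 arrays, with at most 1 of those in the corner.

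Pancreatic acinar markers were high in 2 of the 3 jet-lagged livers and low in the third. The mean level of 9 measured acinar markers was -1.34, -2.90 and -2.79 for mice 1, 2 and 3 of the steady group. For mice 1, 2 and 3 under jet lag it was -2.61, 3.84 and 3.69. Jet-lagged mouse 1 lay within the steady range, and mice 2 and 3 had the highest acinar scores of the 32 arrays, above the highest of the 26 others at 3.04. The difference of 3.99 had an exact two-sided permutation p of 0.2, where the smallest p that 3 against 3 allows is 0.1. Cpa1, a carboxypeptidase of pancreatic juice, stood at -1.57, -5.07 and -5.18 in the steady group against -4.81, 5.13 and 4.52 under jet lag. Amy2a5, pancreatic amylase, stood at 2.77, 2.13 and 2.26 against 2.17, 8.21 and 7.74. Both genes were high in jet-lagged mice 2 and 3 only. Cpa1 was well above background in 1 of 3 steady and 2 of 3 jet-lagged mice, so that its difference of 6.19 (SE 3.08, adjusted p = 0.314) rests in part on values below background. None of the 9 markers was called. Without jet-lagged mouse 1, Ctrb1 and Ctrl among them were called higher.

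Skeletal muscle markers stood higher in all 3 jet-lagged mice than in any steady mouse. The mean level of 15 of them was -2.11, -2.11 and -4.40 in the steady group against -0.52, 0.40 and 1.17 under jet lag, so the groups did not overlap (difference 3.22, exact two-sided permutation p = 0.1, the smallest possible). The 26 other arrays ran from -4.19 to 3.41, so steady mouse 3 lay below all of them and the other 5 mice inside that range. Myh4, a fast-fibre myosin heavy chain, stood at -4.56, -1.95 and -6.60 in the steady group against -1.25, 1.06 and 1.51. Mb, myoglobin, stood at -2.34, -2.62 and -6.70 against -0.30, 0.74 and 1.45. Myh4 was well above background in 1 and Mb in 2 of the 3 steady mice. Steady mouse 3 held the least muscle RNA and jet-lagged mouse 3 the most of the 6. Neither gene was called (Mb: difference 4.99, SE 1.91, adjusted p = 0.182), nor was any other muscle marker. The 2 measured islet markers averaged -2.51, -2.47 and -2.00 in the steady group against -1.91, -1.48 and 0.67 under jet lag. The 4 fat markers averaged -0.63, -3.62 and -3.53 against -1.35, -1.45 and -0.91.

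**Figure D1:**
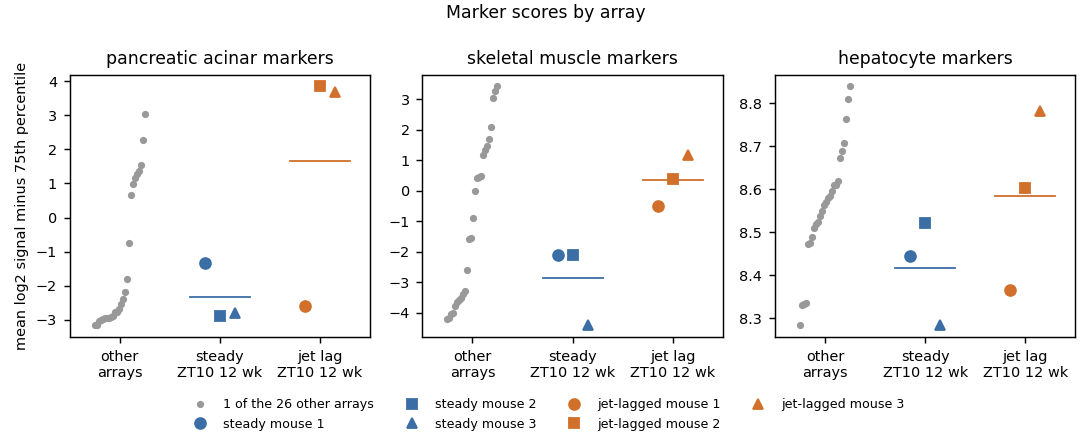
Mean level of the measured pancreatic acinar, skeletal muscle and hepatocyte markers (y axis, log2 signal minus the array's 75th percentile, each panel on its own scale) in the 26 other arrays (grey, ordered by value) and in the 6 mice at ZT10 and 12 weeks; lines are group means. Jet-lagged mice 2 and 3 stand at 3.84 and 3.69 for acinar markers while mouse 1, at -2.61, lies among the steady mice; for muscle all 3 jet-lagged mice lie above all 3 steady mice.

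Of the 23106 genes tested, 418 were called (1.81%): 192 were higher (0.831%) and 226 lower (0.978%) in the jet-lagged group. Their changes were moderate, with a median of 0.72 among higher and -0.66 among lower genes, and 49 higher and 47 lower genes changed at least 2-fold. At an unadjusted p under 0.05 there were 3883 genes, or 16.8% of those tested. Among the 192 higher genes all 3 jet-lagged mice lay above all 3 steady mice for 187, and among the 226 lower genes all lay below for 225. Over all genes with a value in every mouse, 9.21% lay wholly above and 9.34% wholly below. The call rested on particular mice. Without steady mouse 3, 13 genes were called, and without jet-lagged mouse 2, 36 were called. Without steady mouse 2 or jet-lagged mouse 3 there were 261 and 268 calls, and without steady mouse 1 or jet-lagged mouse 1 there were 374 and 485. With the slide as a fixed block 80 genes were called. The spread behind the 418 calls was estimated from all 32 arrays. With the 12 week arrays only, 95 genes were called, and with only the 6 arrays 0.

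None of the 418 called genes followed the acinar score. To find genes that do, each gene was regressed on the score within groups, in the 26 arrays outside this comparison. The slope passed an adjusted p under 0.05 for all 9 markers and for 16 other genes (0.0693% of those tested), each with a positive slope. They were the secreted enzymes and inhibitors Amy1, Amy2a5, Cel, Cela3a, Rnase1, Serpini2 and Spink1, the zymogen granule protein Gp2, the regenerating proteins Reg1 and Reg3d, the kallikreins Klk1, Klk1b26, Klk1b3 and Klk1b5, and 2 transcripts with no symbol here. These 16 genes were not all of one size: their differences at ZT10 ran from 0.80 to 6.34, with a median of 2.00. The median was -0.06 in jet-lagged mouse 1 and 2.88 in mice 2 and 3. The smallest adjusted p among them in the schedule comparison was 0.0815. A gene that moves with the score differs between jet-lagged mouse 1 and mice 2 and 3, which widens its SE, as in Cel (3.70, SE 1.52). Such a gene could hardly be called. The count of 0 therefore cannot tell whether called genes hold acinar signal. Members of the Klk1 and amylase families are near copies of each other, and their probes may share signal.

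Reg1, a secreted protein of acinar cells, was among the genes of large difference. It stood at -1.09, -6.05 and -6.43 in the steady group against -1.89, 3.25 and 2.83 under jet lag. Jet-lagged mouse 1 lay inside the steady range while mice 2 and 3 lay above it (difference 6.34, SE 2.21, adjusted p = 0.14). Reg1 was well above background in 1 of 3 steady mice and in all 3 jet-lagged mice, so that the size of its difference rests on steady values below background. Of the 67 genes at least 4-fold higher in jet-lagged livers, 17 were acinar markers or had a called acinar slope, and 32 were muscle markers or had a called slope on the muscle score. Only 7 of the 67 were called. Of the 34 genes at least 4-fold lower, 21 lay in the dark corner of the array of jet-lagged mouse 3, and 7 of the 34 were called. Ugp2, which makes UDP-glucose, is a case: it stood at 5.96, 6.37 and 6.08 in the steady group against 5.77, 5.32 and -2.90 under jet lag. Jet-lagged mouse 3 alone was low there. With that corner set to missing, 419 genes were called, 417 of them among the 418.

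The called genes moved in the acinar-poor jet-lagged mouse as well. Jet-lagged mouse 1 lay on the same side of the steady mean as the call for 192 of 192 higher and 226 of 226 lower genes, with median differences of 0.54 and -0.54. Mice 2 and 3 gave 0.77 and -0.70. On the 1 slide that held both groups, jet-lagged mouse 1 also lay on the called side of steady mouse 3 for all 418 genes. These arrays belong to the comparison that chose the genes, so these counts are a description. At an unadjusted slope p under 0.05, 0 called genes followed the acinar score and 12 had a slope of the opposite sign, where 3.83% of all genes had a slope in either direction. On the muscle score, 83 genes other than its markers had a called slope. None of the 418 was among them with a matching sign, while at an unadjusted p under 0.05 there were 19 with a matching and 3 with the opposite sign, where 4.37% of all genes had a slope in either direction. With the acinar score as a covariate 71 genes were called (70 of the 418), with acinar and muscle scores 7, and with the muscle score alone, added after seeing the data, 20. Without the 10 arrays whose acinar score was above 0, a choice also made after seeing the data, jet-lagged mouse 1 alone stood against the 3 steady mice and 2 genes were called, 0 of them among the 418. The scores differ between the groups themselves, so schedule and score cannot be fully told apart in these fits.

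**Figure D2:**
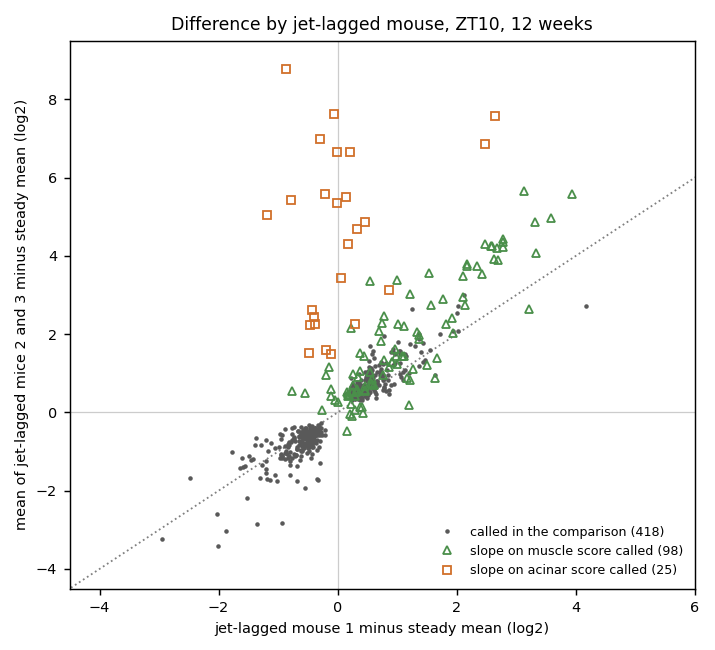
Difference from the steady mean (log2) in jet-lagged mouse 1 (x axis) and in jet-lagged mice 2 and 3 (y axis, their mean) for the 418 called genes (grey dots), the 25 genes with a called slope on the acinar score (orange squares) and the 98 with a called slope on the muscle score (green triangles); the dotted line marks equal differences. Acinar genes rise along the y axis with mouse 1 near 0 for most of them, whereas called genes, which were chosen from these same mice, have medians of 0.54 in mouse 1 and 0.77 in mice 2 and 3 where higher, and of -0.54 and -0.70 where lower.

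Among clock genes, Arntl and Clock, whose proteins drive the loop, were higher in jet-lagged livers. Of 22 core clock genes measured, 5 were higher, among them Arntl, Cry1, Nfil3 and Clock, and 0 were lower, where 0.831% of all genes were called higher and 0.978% lower, and the list's median difference was -0.16, beside 0.04 over all genes tested. Arntl, which encodes BMAL1, stood at -3.99, -3.79 and -3.65 in the steady group. In the jet-lagged mice it stood at -1.68, -0.24 and -1.38, so the groups did not overlap and mouse 2 was highest. Arntl was 6.56-fold higher (difference 2.71, SE 0.50, adjusted p = 0.00867), with 2 of 3 steady arrays well above background. Cry1, a repressor of CLOCK and BMAL1, stood at -3.43, -3.60 and -3.37 against -2.17, -1.71 and -1.82 (difference 1.57, SE 0.34, adjusted p = 0.0199). Every jet-lagged mouse lay above every steady mouse for it.

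Nfil3, a repressor that competes with DBP for D-boxes, stood at 2.09, 2.00 and 1.69 in the steady group against 2.90, 3.60 and 2.79 under jet lag (difference 1.20, SE 0.26, adjusted p = 0.019). Clock, the partner of BMAL1, stood at -0.96, -1.01 and -1.24 against -0.55, 0.22 and -0.45 (difference 0.78, SE 0.18, adjusted p = 0.0266). In both genes the groups did not overlap, and mouse 2 was the highest. None of the 5 calls was made without steady mouse 3 or without jet-lagged mouse 2. Without jet-lagged mouse 1, the acinar-poor one, all 5 were called and Dbp was called lower as well. With the acinar score as a covariate, or with the slide as a fixed block, 0 of the 22 clock genes were called, and with the covariate Arntl differed by 2.16 (SE 0.49, adjusted p = 0.0589).

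Several genes that CLOCK and BMAL1 drive had lower levels without passing the test. Nr1d1, which encodes REV-ERB alpha, stood at 0.60, 1.08 and 1.11 in the steady group against -0.02, -1.42 and -0.98 under jet lag (difference -1.84, SE 0.56, adjusted p = 0.0882). Ciart, a repressor of CLOCK and BMAL1, stood at 1.25, 0.95 and 0.93 against -0.21, -0.92 and -0.58 (difference -1.57, SE 0.45, adjusted p = 0.0699). Dbp, an activator at D-boxes, stood at 6.73, 6.91 and 6.85 against 6.09, 4.58 and 5.73 (difference -1.45, SE 0.42, adjusted p = 0.0785). In each of them all jet-lagged mice lay below all steady mice, with mouse 1 the nearest to the steady group. With normexp background correction all 3 passed the test as lower. None of the Period genes was called: the difference was -0.46 for Per1 (SE 0.36), -0.11 for Per2 (SE 0.30) and -0.30 for Per3 (SE 0.34).

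**Figure D3:**
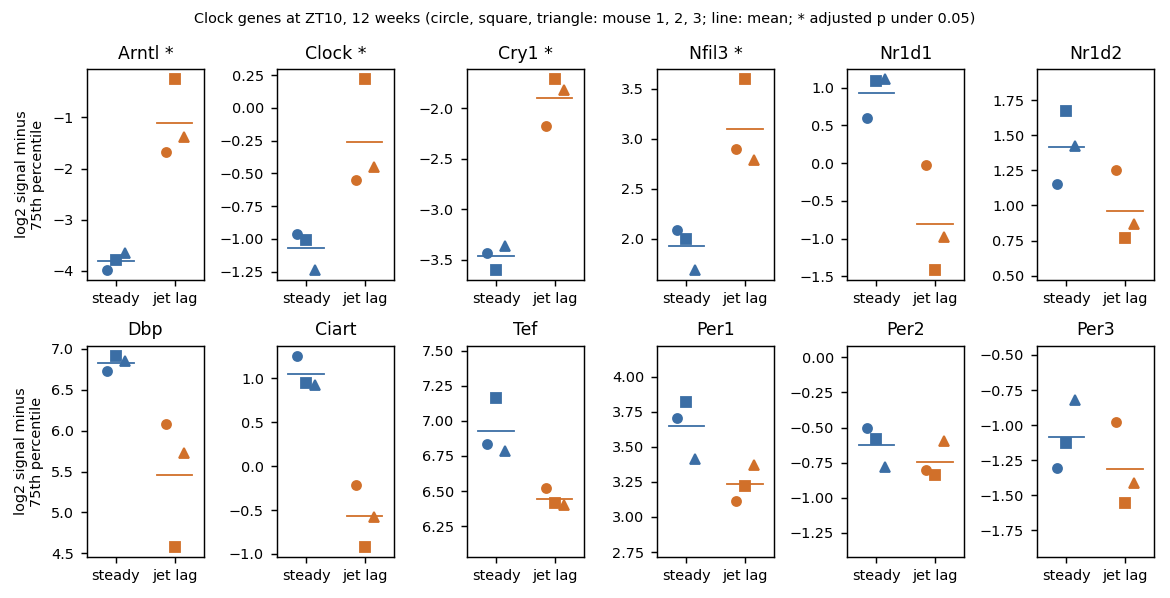
Level of 12 clock genes (y axis, log2 signal minus the array's 75th percentile, each panel on its own scale) in 3 steady and 3 jet-lagged mice at ZT10 and 12 weeks; circle, square and triangle are mice 1, 2 and 3, lines are means, and an asterisk marks adjusted p under 0.05. Arntl, Clock, Cry1 and Nfil3 lie higher in all jet-lagged mice; Nr1d1, Dbp and Ciart lie lower, with mouse 1 the least so.

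Promoter windows are shown for 4 of these genes, because Arntl and Nfil3 rose and hold the ROR element core, and because Cry1 and Ciart hold E-boxes yet stood on opposite sides. Each window is the RefSeq sequence (GRCm38.p6) of 300 bases around a start site, most of it upstream, written 5′ to 3′ in the gene's direction. Capitals mark the ROR element core TAGGTCA or its reverse complement TGACCTA in Arntl and Nfil3, and in Cry1 and Ciart the E-box CACGTG or, once in Cry1, the variant CACGTT as its reverse complement AACGTG. The windows are chr7:113207261-113207560 on the plus strand for Arntl, chr13:52980990-52981289 on the minus strand for Nfil3, chr10:85185005-85185304 on the minus strand for Cry1 and chr3:95882179-95882478 on the minus strand for Ciart.
Arntl: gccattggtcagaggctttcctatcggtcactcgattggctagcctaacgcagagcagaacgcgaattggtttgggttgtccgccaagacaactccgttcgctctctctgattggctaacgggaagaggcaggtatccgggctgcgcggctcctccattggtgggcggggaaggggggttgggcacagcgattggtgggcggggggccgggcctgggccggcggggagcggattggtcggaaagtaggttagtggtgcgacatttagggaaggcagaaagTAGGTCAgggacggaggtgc
Nfil3: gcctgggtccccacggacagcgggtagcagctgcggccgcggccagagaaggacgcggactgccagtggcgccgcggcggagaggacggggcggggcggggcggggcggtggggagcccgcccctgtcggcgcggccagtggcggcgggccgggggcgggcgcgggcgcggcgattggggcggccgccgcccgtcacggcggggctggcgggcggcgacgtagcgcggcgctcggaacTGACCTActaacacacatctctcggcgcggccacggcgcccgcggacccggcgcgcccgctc
Cry1: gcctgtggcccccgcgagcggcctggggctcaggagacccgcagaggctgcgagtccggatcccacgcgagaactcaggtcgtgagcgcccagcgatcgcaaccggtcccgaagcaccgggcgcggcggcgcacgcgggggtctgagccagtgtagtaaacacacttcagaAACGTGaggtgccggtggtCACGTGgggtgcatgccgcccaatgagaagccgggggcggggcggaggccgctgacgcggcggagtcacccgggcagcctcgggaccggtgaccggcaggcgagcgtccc
Ciart: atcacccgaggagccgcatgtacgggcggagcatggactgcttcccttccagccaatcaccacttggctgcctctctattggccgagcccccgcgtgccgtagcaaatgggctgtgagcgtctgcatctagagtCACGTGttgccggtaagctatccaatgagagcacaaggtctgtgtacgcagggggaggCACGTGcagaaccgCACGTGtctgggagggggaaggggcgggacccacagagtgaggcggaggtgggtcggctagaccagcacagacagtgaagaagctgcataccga
A second Arntl start site has a window without the core. The windows of Clock and that of Cry1 hold no ROR element core either. Those of Dbp and Nr1d2 hold neither the E-box nor the variant, and that of Nr1d1 holds the variant alone. Only these 300 bases were searched. The ROR element core begins 31 bases after the start site in Arntl and 12 before it in Nfil3, and Ciart holds 3 E-boxes. Over 14215 windows of 11225 tested genes, 2.15% held the ROR element core and 9.29% the E-box on either strand. Of 144 windows of genes called higher, 4.17% held the core and 8.33% the E-box. Of 195 windows of genes called lower, 2.56% and 13.3% did. Other motifs were searched as well. The cAMP response element TGACGTCA was in 2.71% of all windows, 5.56% of the higher and 2.56% of the lower ones. For the E-box variant the shares were 4.94%, 4.86% and 3.08%, and for the D-box TTATGTAA 0.668%, 0.694% and 0%. A match is a description of letters, not of binding.

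Calls were more frequent among genes with a daily rhythm than among genes with no called peak. A rhythm was defined in other mice, from the 30 week arrays alone: genes called for time of day in the steady group were grouped by their highest and lowest of the 3 times. Of 1069 genes that peaked at ZT10, 106 were lower (9.92%) and 0 higher in the jet-lagged group, and their median difference was -0.23. Of 835 genes with their trough at ZT10, 93 were higher (11.1%) and 5 lower, with a median of 0.24. Of 418 genes that peaked at ZT18, 74 were higher (17.7%) and 0 lower, with a median of 0.34. Of 720 with their trough at ZT18, 91 were lower (12.6%) and 0 higher. Each gene called for time of day has both a peak and a trough. The peak and trough classes therefore hold the same genes, and their counts cannot be added. Genes that peaked at ZT2 were divided, with 33 of 627 higher and 13 lower. Among the 20992 genes with no called peak, 85 were higher (0.405%) and 107 lower (0.51%). In all, 13 genes were called without steady mouse 3 and 36 without jet-lagged mouse 2. The classes were not counted again in those fits. In jet-lagged mouse 1 alone the median difference was -0.20 for the ZT10 peak genes and 0.24 for the ZT18 peak genes, against -0.23 and 0.39 in mice 2 and 3. Muscle scores also differed by time in the steady 30 week mice: 1.70, 0.45 and 2.08 at ZT18. At ZT10 they were -4.02, -1.55 and -3.77, and at ZT2 -4.19 and -0.02. What part muscle RNA has in these classes was not tested.

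**Figure D4:**
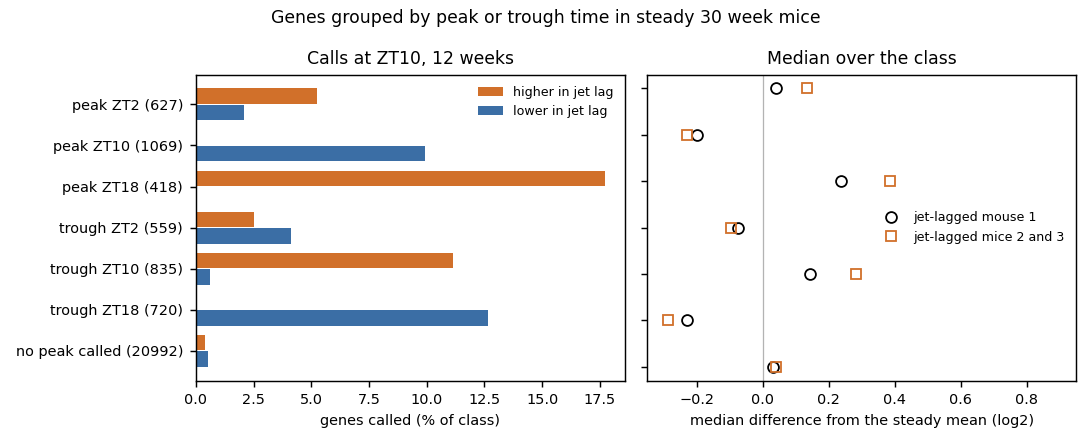
Left, share of genes called higher (orange) or lower (blue) at ZT10 and 12 weeks (x axis, percent of the class) in classes set by peak or trough time in steady 30 week mice. The number of genes stands in brackets, and the peak and trough classes hold the same genes. Right, the class median of the difference from the steady mean (x axis, log2) in jet-lagged mouse 1 (circles) and in mice 2 and 3 (squares): both lie below 0 for ZT10 peak genes and above 0 for ZT18 peak genes.

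The called genes of largest rise included enzymes of vitamin A and drug metabolism. Cyp26b1, which breaks down retinoic acid, stood at -0.03, -1.08 and -1.65 in the steady group against 3.24, 2.63 and 0.95 under jet lag, without overlap and with acinar-poor mouse 1 the highest. It was 8.97-fold higher (difference 3.16, SE 0.59, adjusted p = 0.00958), the largest rise among the 192 higher genes. Cyp2b10, the classic target of the xenobiotic receptor CAR, stood at 0.09, -0.06 and 0.15 against 2.07, 3.36 and 1.83 (difference 2.21, SE 0.44, adjusted p = 0.0127). Its near copies in the Cyp2b family could share signal with its probe. Of 20 measured CAR and PXR targets and haem synthesis genes, Cyp2b10 and Cyp3a13 were higher and 0 lower. Over all genes, 0.831% were called higher and 0.978% lower. Mecom, a zinc-finger transcription factor, stood at -4.12, -3.56 and -3.29 in the jet-lagged group and was not well above background in any steady mouse, so that it was at least 1.44-fold higher (adjusted p = 0.00838). That bound sets the jet-lagged mean against the lowest signal of probes well above background, or the probe's own value where that was higher. H3c15, a histone H3 gene with near-identical copies, was higher by 1.90 (SE 0.34).

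Other genes of large rise were Ces4a, a carboxylesterase (difference 1.82, SE 0.30), Lrfn3, a membrane adhesion protein (1.74, SE 0.24), Scara5, a ferritin receptor (1.72, SE 0.42) and Insc, a spindle orientation adaptor (1.56, SE 0.21). Insc stood at 0.41, -0.40 and -0.13 in the steady group against 1.17, 2.04 and 1.38 under jet lag. Lrfn3 stood at 0.53, 0.46 and 0.12 against 1.74, 2.46 and 2.04. Nat8f5, an acetyltransferase on the list of growth hormone and sex-biased genes, stood at 3.32, 2.91 and 2.75 against 4.14, 4.68 and 4.20 (difference 1.36, SE 0.18, adjusted p = 0.00102). The groups did not overlap in these 3 genes. Of 23 measured genes of the growth hormone list, Nat8f5 and Cyp7b1 were higher and 0 lower. Of the 50 named genes that were called, 4 were called whichever of the 6 mice was left out: Insc, Lrfn3, Nat8f5 and the lower Acsl5. Cyp26b1 lost its call without steady mouse 3 or jet-lagged mouse 2, with differences between 2.46 and 3.77 over the 6 fits.

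Among the lower genes, Aqp8, a water channel of hepatocytes, stood at 6.02, 6.60 and 6.98 in the steady group against 4.89, 4.99 and 5.21 under jet lag (difference -1.56, SE 0.28, adjusted p = 0.00779). Hamp2, a relative of the iron hormone hepcidin, stood at 3.56, 3.92 and 4.86 against 1.64, 1.96 and 2.92 (difference -2.27, SE 0.54, adjusted p = 0.0299). Clec2h, a C-type lectin, stood at 2.04, 2.21 and 2.52 against 0.91, -0.95 and -0.25 (difference -2.28, SE 0.46, adjusted p = 0.0135). The jet-lagged mice all lay below the steady mice in these genes. Chrna4, a nicotinic receptor subunit, fell by 2.49 (SE 0.58, adjusted p = 0.0286), with 1 of 3 jet-lagged arrays well above background. Klf10, a growth-restraining transcription factor, stood at 2.58, 2.11 and 3.05 against 1.39, 1.23 and 1.05 (difference -1.56, SE 0.38, adjusted p = 0.0332). The other lower genes of largest change were Unc93a (-1.67, SE 0.32), Pde6c, a cone phosphodiesterase (-1.59, SE 0.31), Defb1, a defensin (-1.51, SE 0.27), Gpx6, a glutathione peroxidase (-1.49, SE 0.32), Zmynd10 (-1.47, SE 0.33), Serpina7, thyroxine-binding globulin (-1.40, SE 0.36), and Ell3, an elongation factor (-1.38, SE 0.23). Of the lower genes named here, Aqp8 kept its call without jet-lagged mouse 2, and none kept it without steady mouse 3.

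Among acute phase genes, most of which hepatocytes secrete in inflammation, 4 of 30 were called higher (Lcn2, Saa4, Hp and Itih3), where 0.831% of all genes were, and 0 lower, and the median difference was 0.34 beside 0.04 over all genes. Hp, the haemoglobin-binding protein haptoglobin, stood at 9.55, 9.60 and 9.37 in the steady group against 10.03, 10.62 and 10.06 under jet lag (difference 0.74, SE 0.13, adjusted p = 0.00564). Lcn2, which binds bacterial iron carriers, stood at 0.40, -0.25 and 0.05 against 2.01, 3.29 and 0.99 (difference 2.13, SE 0.50, adjusted p = 0.029). Saa1, a serum amyloid picked after its values were seen, stood at 5.08, 4.22 and 4.83 against 6.19, 9.68 and 5.22 (difference 2.37, SE 0.69, adjusted p = 0.0806). Mouse 2 was the highest in all of these, and it also had the highest acinar score (3.84). Jet-lagged mouse 3, with an acinar score of 3.69, lay below acinar-poor mouse 1 (-2.61) for Lcn2 and Saa1 and close to it for Hp. Neutrophil markers averaged 0.70, 0.41 and 1.02 in the steady group against 1.36, 1.21 and 0.76 under jet lag. Their part in the result was not tested. Without jet-lagged mouse 2, only Hp of the 30 was called (list median 0.26), without steady mouse 3 none was (0.29), and without jet-lagged mouse 3, 9 were higher (0.43). The Saa genes are near copies, and their probes may share signal.

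Of 30 fatty acid and triglyceride synthesis genes 2 were lower and 0 higher, where 0.978% of all genes were called lower and 0.831% higher. The list median was -0.30, beside 0.04 over all genes. Scd1, the stearoyl-CoA desaturase, stood at 7.53, 7.84 and 7.95 in the steady group against 6.35, 6.14 and 7.02 under jet lag (difference -1.32, SE 0.29, adjusted p = 0.0209). Acsl5, which activates fatty acids, stood at 4.71, 4.95 and 4.81 against 4.48, 4.18 and 4.06 (difference -0.58, SE 0.10, adjusted p = 0.00517). Neither gene's groups overlapped, and Acsl5 alone of the list was called without steady mouse 3 and without jet-lagged mouse 2. Of 26 cholesterol synthesis and uptake genes 0 were called at an adjusted p under 0.05 and 7 at an unadjusted p under 0.05, with a median of -0.37 and 4 positive differences. The deposited log2 table gave 8 lower and 1 higher fatty acid synthesis gene, beside 669 lower and 770 higher of the 12658 genes tested with it. Fatty acid oxidation (30 genes) and lipid droplet proteins (16 genes) had 0 calls in either direction, with 5 and 2 genes at an unadjusted p under 0.05. Over all genes tested, 16.8% passed that unadjusted threshold.

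Of 16 bile salt, sterol and phospholipid transport genes, 3 were lower (Aqp8, the bile salt pump Abcb11 and the conjugate pump Abcc2) and 1 higher (the efflux pump Abcg2). Beside the lists in this paragraph, 0.978% of all genes were called lower and 0.831% higher. Abcb11 stood at 6.34, 6.35 and 6.27 in the steady group against 5.95, 6.04 and 5.75 under jet lag (difference -0.40, SE 0.09, adjusted p = 0.0286). In bile acid synthesis, Cyp7b1 of the alternative pathway was higher (difference 1.06, SE 0.23, adjusted p = 0.0199) and Klb, the coreceptor for FGF15, lower (-0.62, SE 0.15), among 18 genes with a median of 0.01. Of 27 glutathione and NRF2 response genes, Gstm3 and Gstm4 were lower and 0 higher, with a median of -0.23. Gstm4 stood at 4.17, 4.18 and 4.50 against 3.78, 3.32 and 3.59 (difference -0.73, SE 0.15, adjusted p = 0.0143), and the Gstm genes are close relatives. Without steady mouse 3 none of these genes was called, and without jet-lagged mouse 2 only Aqp8.

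Other lists held few calls. Of 19 heat shock and cold-induced genes Hsp90aa1 was higher (difference 0.95, SE 0.22) and 0 lower, with a list median of 0.32. Of 30 ribosome biogenesis genes Nop16 was higher (0.52, SE 0.11), and of 28 glucose and insulin genes Pfkfb1, a regulator of glycolysis, was higher (0.73, SE 0.15). Among 18 pericentral hepatocyte genes, glutamine synthetase Glul (0.35, SE 0.09) and the dicarboxylate transporter Slc13a3 (0.83, SE 0.14) were higher and 0 lower. Of 16 iron handling genes Atoh8 was higher (0.96, SE 0.24) and Hamp2 lower. Of 25 genes of p53, Myc and growth control Klf10 and Ier2 were lower and 0 higher. Of 15 retinoic acid and steroid turnover genes Cyp26b1 alone was higher and 0 lower. Of 26 clock output genes Leo1 (0.93, SE 0.18) and Tsc22d3, a glucocorticoid-induced gene (0.85, SE 0.21), were higher. Cell cycle (24 measured), interferon (24), unfolded protein response (26) and periportal (24) genes had 0 calls, with 3, 5, 9 and 5 genes at an unadjusted p under 0.05, which 16.8% of all genes passed. None of the calls in this paragraph was made without steady mouse 3, and Slc13a3 alone was called without jet-lagged mouse 2.

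The same schedule difference was measured at other times and in older mice, with no mouse shared between the comparisons. The calls came from the same limma fit of all arrays, so the comparisons share each gene's estimate of spread. A gene of small spread is more easily called in each of them. Calls shared by both ages are therefore not an overlap of independent tests. At ZT10 in mice of 30 weeks (3 against 3) 157 genes were called (0.679%). Of the 418 genes, 378 (90.4%) had the same sign there, against 59.8% of all genes, and 61 were called at both ages, all with the same sign, which is 14.6% of the 418 and 38.9% of the 157. Muscle scores at ZT10 and 30 weeks were -4.02, -1.55 and -3.77 in the steady group against 3.41, -3.50 and 0.47 under jet lag. Acinar scores were -2.90, 2.28 and -3.03 against -2.53, 1.37 and 1.16. What part these scores have in the shared signs was not tested. Arntl differed by 2.75 (SE 0.50) at 30 weeks and Nfil3 by 1.48. The difference between the ages passed the test for 0 genes (0%; 1289 at an unadjusted p under 0.05). Cyp26b1 differed by 3.16 at 12 weeks and 1.01 at 30 weeks, and Lcn2 by 2.13 and 0.45, and for neither did the test of the ages pass (adjusted p = 0.863 and 0.863).

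At ZT18 fewer of the called genes than of all genes had the same sign as at ZT10. At ZT18 in mice of 12 weeks (3 against 3; 665 genes called, 2.88%) 39.2% of the 418 genes had the same sign as at ZT10, against 52.9% of all genes, and at ZT2 (2 against 2; 57 called, 0.247%) 48.1% did, against 52.5%. Muscle scores at ZT18 and 12 weeks were 1.18, 1.34 and 0.41 in the steady group against -3.38, -3.58 and 1.48 under jet lag. Their part in these signs was not tested. The schedule difference at ZT10 departed from that at ZT18 in 598 genes (2.59%) and from that at ZT2 in 109 (0.472%). Arntl was 2.71 higher at ZT10 and 2.49 lower at ZT18 (test of the change: 5.20, SE 0.73, adjusted p = 0.000483). Nr1d1 stood 1.84 lower at ZT10 and 3.82 higher at ZT18 (test of the change: -5.66, SE 0.81, adjusted p = 0.00053). Dbp stood 1.45 lower at ZT10 and 4.33 higher at ZT2 (test of the change: -5.79, SE 0.70, adjusted p = 0.000309). Per3 differed by -0.30 at ZT10 and by 2.90 at ZT2. Without steady mouse 3 the counts were 253 against ZT18 and 51 against ZT2, and without jet-lagged mouse 2 they were 310 and 52.

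**Figure D5:**
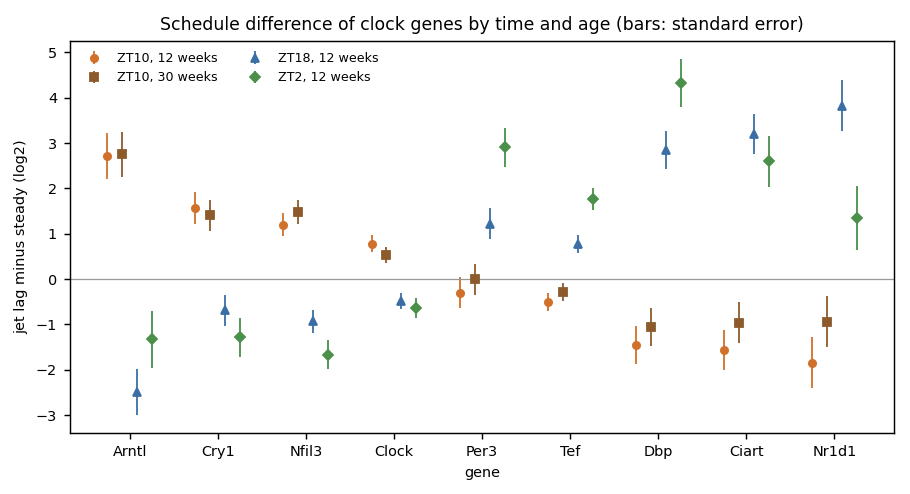
Schedule difference (y axis, jet lag minus steady, log2; bars are standard errors) of 9 clock genes at ZT10 and 12 weeks (orange circles), ZT10 and 30 weeks (brown squares), ZT18 and 12 weeks (blue triangles) and ZT2 and 12 weeks (green diamonds). Arntl lies at 2.71 and 2.75 at ZT10 in the 2 ages and below 0 at ZT18 and ZT2; Dbp, Ciart and Nr1d1 run the other way.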

How the data were processed

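Liver RNA of 32 mice was hybridised to 1-colour Agilent arrays on 8 slides of 4, and the 6 arrays of the ZT10, 12 week groups were compared. Per the file headers, the authors' scanner software (Feature Extraction 11.0.1.1) gave each spot a processed signal, a background-corrected intensity on a linear scale; the submitters' processing notes name version 9.1. Per the series text, the authors normalized and removed a batch effect before limma. The series table they deposited holds log2 values in 16795 rows. Leaving out any control rows and averaging the rows of each probe left 15148 probes in the table. Its columns had medians of 9.82 to 9.90 and ran in the same direction as the scanner values, and the batch that was removed and the centring stay unknown.

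Control spots (3671 of 62976) were left out, spots of a probe averaged, and log2 intensity reduced by each array's 75th percentile. Of 55681 probes, 30484 that were well above background on every array of at least 1 group were kept, and the brightest probe stood for each of 23106 genes, of which 14079 had a symbol. limma 3.58.1 (R 4.3.3) fitted 12 groups with the slide as a random block (correlation 0.245), with Benjamini-Hochberg adjustment. Each mouse is 1 sample. The number of arrays limits the precision. Same-numbered mice did not deviate together (correlations -0.134, 0.211 and 0.0719), so no pairing was used. Scripts were tested on simulated data.

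One clock gene is not reported here by name, although counts over the clock list include it. Named genes were the other measured core clock genes, the 12 higher and 12 lower called genes of largest change with a plain symbol that did not follow the acinar score, up to 4 members of each pathway list, the 5 of largest size in each test between comparisons, and the acinar markers. The members and lists were chosen with earlier results of these data known. Alternatives covered normalization, background correction, filters, probe averaging, slide, samples, marker scores and each mouse left out. The files used here hold a median but no mean spot signal, so normexp used the median.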

Additional observations from a re-analysis of the deposited data

Results flagged for a closer look

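Over the named genes reported here, limma's test of the schedule difference at ZT10 minus that at another time passed an adjusted p under 0.05 at 12 weeks for 42 genes against ZT18 and 16 against ZT2. There were 133 named genes, some of them named for their size in these same tests or for their call at ZT10, whose arrays enter both tests, so these counts say nothing beyond the choice of genes. Over all genes 2.59% and 0.472% passed. Each value below is such a difference of differences on the log2 scale, and a positive one means that jet lag minus steady was greater at ZT10.

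Against ZT18, the clock genes with a positive value were Arntl (5.20), Cry1 (2.26), Nfil3 (2.13) and Clock (1.27). The clock genes with a negative value were Nr1d1 (-5.66), Ciart (-4.77), Dbp (-4.30), Nr1d2 (-2.30) and Tef (-1.28). For every gene listed in this paragraph the schedule difference had opposite signs at ZT10 and ZT18. For some of them the difference at ZT18 was small, as in Ell3 (0.11) and Slc13a3 (-0.12), so opposite signs alone do not show a reversal. Outside the clock list, positive values against ZT18 were found for Mb (10.7), Cyp26b1 (4.32), Lrfn3 (3.11), H3c15 (2.99), Pdk4 (2.90), Cyp2b10 (2.64), Insc (2.33), Ces4a (2.23), Nat8f5 (2.09), Leo1 (1.45), Hsp90aa1 (1.40), Agpat2 (1.12), Pfkfb1 (1.07), Stip1 (0.99), Slc13a3 (0.96), Nop16 (0.85), Srd5a1 (0.75), Stat5a (0.72), Dnajb11 (0.72) and Mcm7 (0.61). Negative values were found for Rgs16 (-5.08), Klf10 (-2.45), Zmynd10 (-2.25), Unc93a (-2.21), Pde6c (-2.00), Ccne1 (-1.89), Defb1 (-1.85), Gadd45a (-1.51), Ell3 (-1.49), Gys2 (-0.94), Slc38a4 (-0.83), Slc2a2 (-0.72) and Abcc2 (-0.64). Mb is a muscle marker, and the muscle scores at ZT18 were 1.18, 1.34 and 0.41 in the steady group against -3.38, -3.58 and 1.48 under jet lag, so its value moves with the muscle score; what part that has in it was not tested.

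Against ZT2, the clock genes with a positive value were Arntl (4.04), Nfil3 (2.86), Cry1 (2.86) and Clock (1.41). The clock genes with a negative value were Dbp (-5.79), Ciart (-4.16), Per3 (-3.20) and Tef (-2.27). Outside the clock list, positive values against ZT2 were found for Mecom (3.98), Pdk4 (2.79), Lrfn3 (2.51), Nat8f5 (2.22), Insc (1.93) and Leo1 (1.37). Negative values were found for Klf10 (-3.47) and Slc38a4 (-1.12).

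Against ZT10 at 30 weeks no named gene passed. Groups of 3 mice are too small for the outlier criterion, so no single mouse was singled out by it.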

How the results depend on the processing

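Without 1 mouse at a time, the called genes ranged from 13 to 485 (418 with all mice), the genes differing against ZT18 from 253 to 569 (598), those against ZT2 from 51 to 148 (109), those between ages from 0 to 1 (0), and the acinar score difference from 2.89 to 6.11 (3.99). For the schedule comparison the counts were 730 with normexp, 1439 with the deposited log2 values (which hold 12658 of the genes), 212 with no filter on dim probes, 186 with no slide block, 80 with the slide as a fixed block, 95 with the 12 week arrays only and 0 with only the 6 arrays. The replicate block in the 6 arrays also gave 0 calls; mouse numbers are not known to pair the animals. With covariates the counts were 71 (acinar score), 7 (acinar and muscle scores) and 20 (muscle score, added after seeing the data). Against ZT18 the counts were 312 with no filter, 130 with the fixed slide block, 234 with the 12 week arrays, 290 with the acinar covariate, 9 with both and 48 with the muscle covariate. Against ZT2 they were 181 with quantile normalization, 168 with normexp, 282 with the deposited values, 55 with no filter, 30 with the fixed slide block, 24 with the 12 week arrays and 48 with both covariates.

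Leaving out arrays above the median acinar score gave 7 genes against ZT18 and 24 against ZT2; in the schedule comparison it left jet-lagged mouse 1 against steady mice 2 and 3 and gave 362 calls, of which 103 were among the 418. Leaving out arrays with a score above 0, added after seeing the data, gave 2, 7 and 196 in the order of the comparisons above; jet-lagged mouse 1 then stands alone and is assumed to vary like the other groups. The planned rule for acinar-rich arrays marked all 3 jet-lagged mice, so it gave no value. The cause of these changes was not tested. No named gene that was called changed sign under any of the alternatives that gave it a value (22 or 23 each). The count of called genes that follow the acinar score was 0 under each alternative run for it. Those alternatives changed the slope or the score and kept the 418 genes, so calls made without a mouse were not checked. Without jet-lagged mouse 1, the acinar markers Ctrb1 and Ctrl were called higher. Probes near background limit the smallest levels, Mecom and Chrna4 among the named genes.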

Other observations

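Acot11, a thioesterase gene chosen after its values were seen, stood at -0.54, -0.40 and 0.12 in the steady group and at 0.51, -0.01 and 9.47 under jet lag, so jet-lagged mouse 3 alone was high. Irs1, an adaptor of the insulin receptor that lay in the dark corner of that array, stood at 1.28, 2.31 and 1.48 in the steady group and at 1.40, 1.91 and -5.57 under jet lag. Neither was called.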
